A study of Cavia porcellus with 9 samples.

Results

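The nuclear-encoded subunits of the respiratory chain were followed in the retina of guinea pigs (Cavia porcellus) reared under green, blue or white light. Members were taken by gene symbol: all genes named Ndufa, Ndufb, Ndufc, Ndufs or Ndufv with a number, the Sdha to Sdhd genes, and the Atp5 genes. This gave 59 of the 19962 genes in the table, of which 58 passed a filter on low counts that left 15469 genes. The 58 are 34 genes of complex I, 4 of complex II, 18 named for complex V, and Ndufa4 with its paralogue Ndufa4l2. Genes with Uqcr or Cox symbols, which encode complexes III and IV, were not analysed here, nor were the subunits encoded in mitochondrial DNA. The remaining member, Ndufa1, was listed at 0 counts in all 9 libraries. A count of 0 allows a level of at most 0.0385 to 0.0483 CPM by library (counts per 10 to the power of 6 counts, from 3 counts of the scaled total), and says nothing of whether the transcript was in the annotation that was counted.

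The animals were male Dunkin-Hartley guinea pigs, 12 weeks old at sampling, kept for 8 weeks on a light cycle of equal day and night under green light (3 libraries), blue light (3 libraries) or white light (3 libraries). The white group is the reference for each colour, and green is set over blue. The labels name no genotype or drug, and give no wavelength or light level. In each group 2 of the 3 libraries carry the same animal number, so the 9 libraries stand for 6 animal labels. The animal numbers join libraries 1 and 2 of green, 2 and 3 of blue, and 1 and 2 of white. Libraries 1 and 2 of green are both titled as the right eye, and library 1 has the suffix "-B". The labels do not say whether these are the same eye or even the same animal.

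The respiratory chain passes electrons from NADH (complex I) or succinate (complex II) to oxygen, and the proton gradient so built drives ATP synthesis by complex V. Most subunits are encoded in the nucleus, and they are assembled with the mitochondrially encoded ones in fixed proportions. The retina is among the tissues with the highest oxygen use, and much of its mitochondrial mass lies in the inner segments of the photoreceptors.

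Libraries held 62155041 to 74979806 counts. The labelled tissue was checked by its rod markers: all 10 passed the filter, none was at 0, and they had summed rod levels of 68810 to 87740 CPM in green, 80900 to 89630 CPM in blue libraries and 80050 to 88780 CPM in white. The 15 markers of the pigment epithelium, a layer behind the retina that is carried over in dissection, summed to 521 to 1082 CPM in green, 848 to 1125 CPM in blue libraries and 586 to 1182 CPM in white. Since these are bulk retinas, fewer cells of a type and less RNA per cell cannot be told apart.

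Between the lights, none of the 58 members differed at an adjusted p under 0.05 in any comparison (edgeR quasi-likelihood test, Benjamini-Hochberg over all genes). Of all genes tested, 0.00646% were called in green against white, 0.00646% in blue against white and 0% in green against blue. At an unadjusted p under 0.05 stood 2 members in each comparison, against 5.81% of all genes in green against white, 4.45% in blue against white and 7.18% in green against blue. DESeq2's Wald test and limma voom also called 0 members in each comparison.

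The members were steady genes. The SD of log2 CPM over the 9 libraries had a median of 0.116 over the 58 members and of 0.182 over all genes tested, and 54 members lay below that second value. The members also had more counts, with a median of 98.2 CPM against 19.8 CPM over all genes. Between the lowest and the highest library, 55 members differed by less than 1.5-fold. Atp5pd, subunit d of the peripheral stalk of ATP synthase, varied least (SD 0.051), at 112, 116 and 113 CPM in green, 114, 119 and 121 CPM in blue libraries and 118, 125 and 115 CPM in white. Ndufa4l2 varied most (SD 0.531).

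The precision of each gene sets what change could have gone unseen. The 95% interval, not adjusted for the number of genes, of the log2 difference lay within 0.5 of 0 on either side (1.41-fold) for 55 members in green against white, 56 in blue against white and 54 in green against blue. Over all genes the shares were 57.5%, 58.4% and 55.9% in the same order. The members whose interval reached past that margin in at least 1 comparison were Ndufa4l2, Atp5s, Ndufs4 and Ndufb2.

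**Figure D1:**
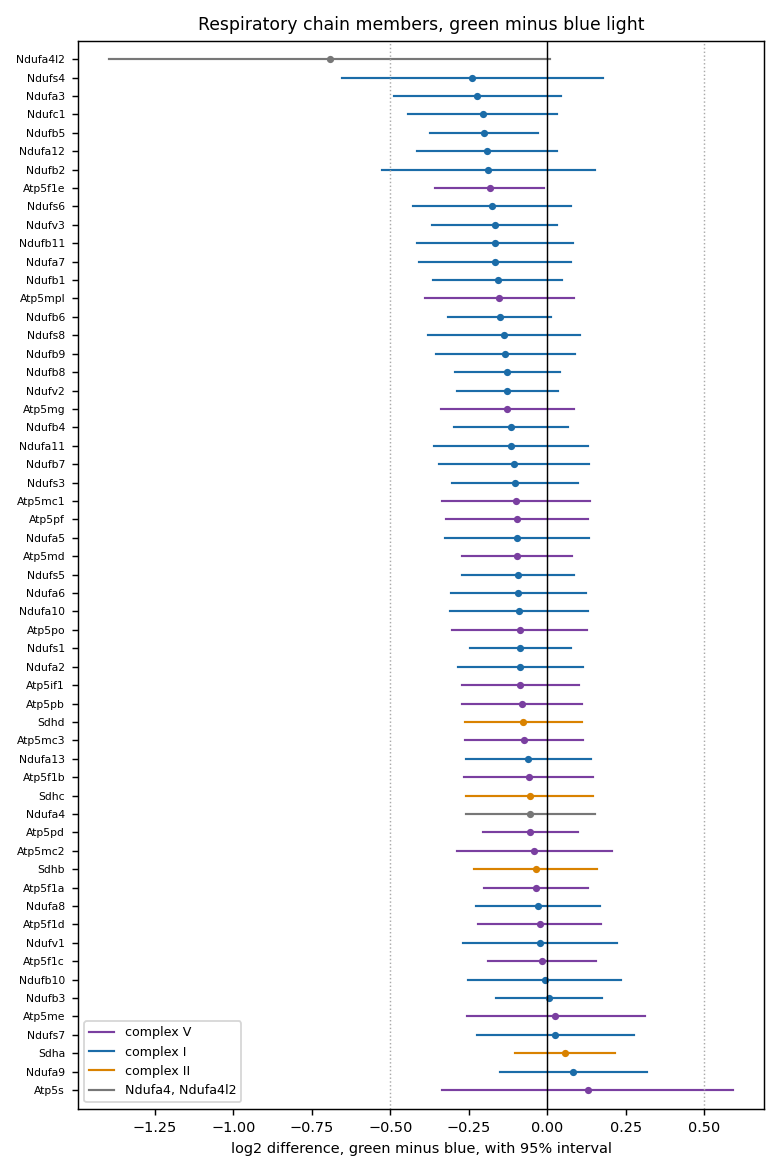
Each line is the 95% interval of the log2 difference of a member between green and blue light (horizontal axis, edgeR), the point is the estimate, and colours mark complexes; dotted lines stand at a log2 difference of 0.5 on either side of 0. 1 of the 58 members is not drawn. Over all 58, the estimate is below 0 for 52, and only the intervals of Ndufb5 and Atp5f1e leave out 0.

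Most members had these small differences in the same direction where green was compared. Green lay below blue in 52 of 58 members, where 50.6% of all genes did, with a median log2 difference of -0.093 against -0.003 over all genes. Green lay below white in 43 of 58, where 47.6% of all genes did, with a median of -0.063 against 0.009. Blue lay above white in 39 of 58, where 51.5% of all genes did, with a median of 0.025 against 0.005. That last direction rested on single libraries: blue lay below white in 19 members with all libraries, in 7 with blue 1 or white 2 left out (medians 0.066 and 0.059), and in 30 to 32 with any 1 of the other blue and white libraries left out (medians -0.01 to -0.003). Each light serves in 2 of these 3 comparisons, so the 3 counts are not separate evidence. Members of a complex are likewise not independent of each other.

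The shift was smaller without library 1 of green, which had the lowest level of the 9 libraries for 41 of 58 members (70.7%). That library was lowest for 19.1% of all genes. Without it, green lay below blue in 39 members with a median of -0.036, and below white in 34 members with a median of -0.012. The median against white also shrank, to -0.021 with 34 members lower, without library 2 of white, which was highest for 18 members. Without any 1 of the other green and white libraries that median was larger in size, at -0.12 to -0.074, with 44 to 48 members lower. Without both libraries whose title ends in "-B", library 1 of green among them, the median was -0.036 for green against blue and -0.034 for green against white. With all libraries kept and that suffix as a covariate, the median for green against white was -0.063, with 43 members lower.

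For 2 of the 3 shared animal numbers, the median difference between the libraries of the number was larger in size than the medians between lights. Single libraries differ more than means of 3 libraries do, so these sizes are not like for like. Library 1 of green lay below library 2 of green, both titled as the right eye with the same number, in 49 of 58 members, with a median log2 difference of -0.174, where the median over all genes was 0.003. Library 1 of white lay below library 2 of white, the right and left eye under one number, in 51 members, with a median of -0.119. Libraries 2 and 3 of blue, again a right and a left eye, differed by a median of -0.034. With counts summed per animal number, which leaves 2 samples a group, the median was -0.068 for green against blue and -0.041 for green against white.

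**Figure D2:**
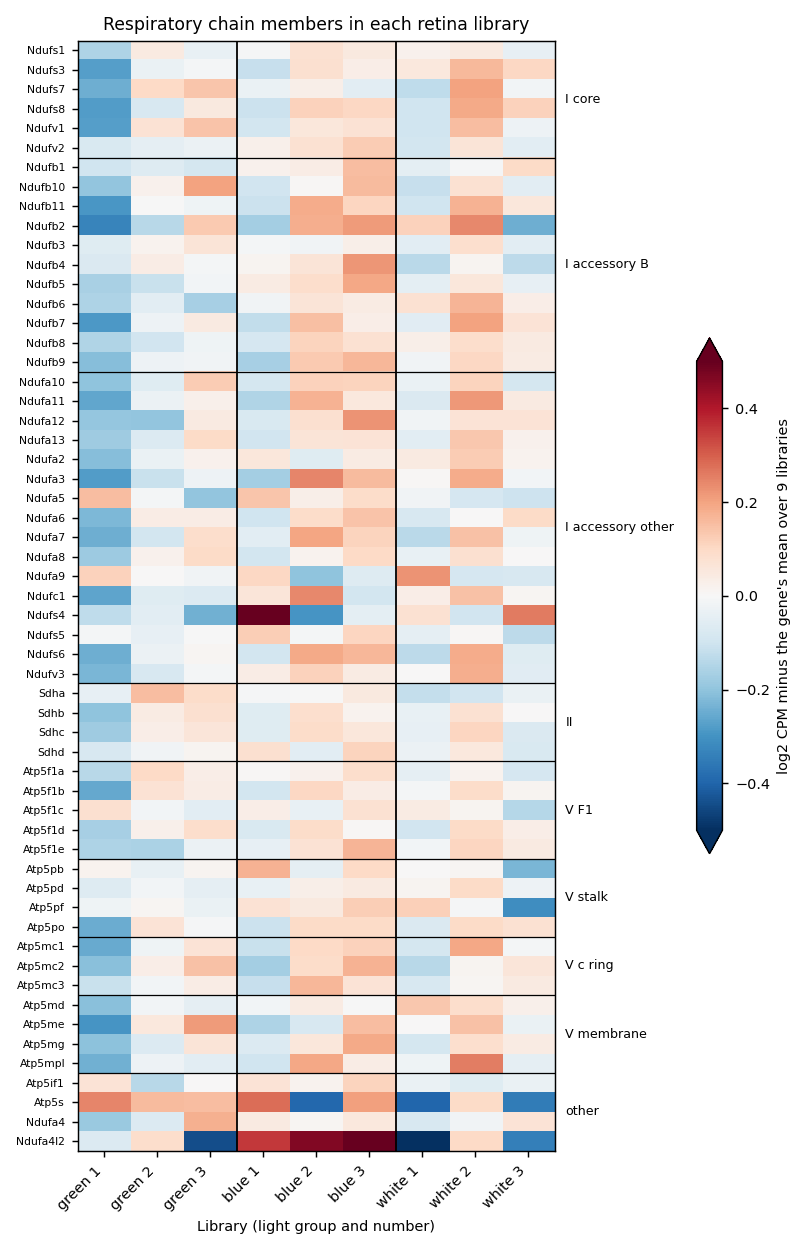
Colour shows log2 CPM of each member (rows, grouped by complex and part) in each of the 9 libraries (columns), minus that gene's mean over the libraries; the scale ends at 0.5 on either side, and 1 of the 58 members is not drawn. Over all 58, library 1 of green is below the mean in 52, library 3 of blue above it in 53 and library 2 of white above it in 50.

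Marker levels of cell types also differed between libraries. Library 1 of green had the lowest summed rod markers (68810 CPM, where the other 8 libraries had 80050 to 89630). Its summed vascular markers were the highest (198 CPM, where the others had 140.0 to 172 CPM). By mean log2 level over the 5 vascular genes tested, library 2 of blue (0.667) lay above library 1 of green (0.611). Summed pigment epithelium markers were lowest in libraries 1 and 3 of green (521 and 528 CPM), with library 3 of white next (586 CPM). The mean level of the members relative to all libraries was -0.156 in library 1 of green and 0.017 in library 3 of green (log2). Lens markers summed to 79.1, 99.3 and 87.6 CPM in green, 82.7, 52.02 and 92.1 CPM in blue libraries and 30.6, 74.4 and 36.45 CPM in white, so that green lay above white without overlap. Müller glia markers, from the supporting glia of the retina, summed to 10210 to 11110 CPM in green, 11140 to 12600 CPM in blue libraries and 9999 to 11930 CPM in white, so that green and blue did not overlap. Rlbp1 is counted in both the pigment epithelium and the Müller glia list. The part of rods, vessels, lens and Müller glia in the shift was not tested. A fit with a covariate used the mean log2 level of the pigment epithelium markers, not their sum (-0.677, 0.358 and -1.185 in green). With this covariate, the median stood at -0.064 for green against blue and -0.038 for green against white.

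**Figure D3:**
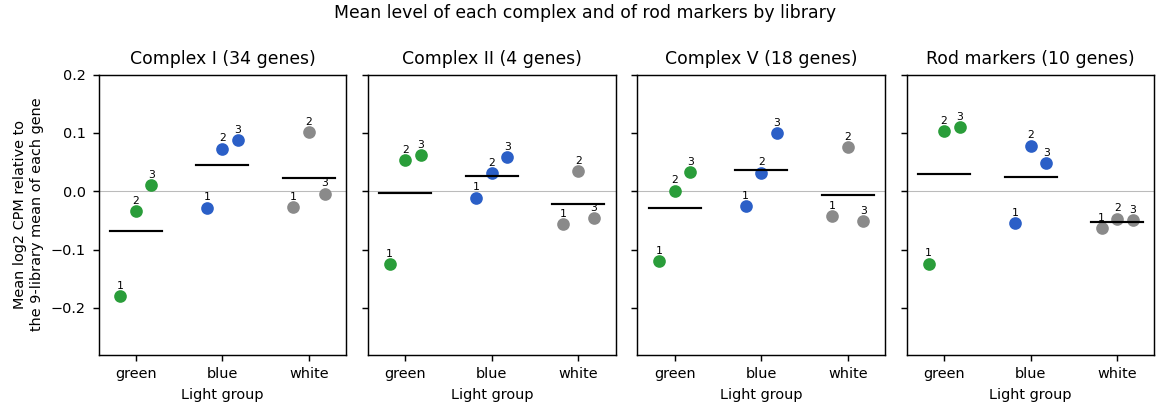
Points are libraries, numbered within each light, and bars are group means; the vertical axis is the mean over the genes of a set of log2 CPM relative to each gene's own 9-library mean. Library 1 of green is lowest for complexes I, II and V (-0.18, -0.125 and -0.12) and for the rod markers (-0.124), and the light groups overlap in all 3 complexes.

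Complex I, NADH:ubiquinone oxidoreductase, showed the shift in most of its genes. Of its 34 tested members 31 were lower in green than in blue (median log2 difference -0.115) and 28 were lower in green than in white (median -0.087), while 22 were higher in blue than in white (median 0.016). Without library 1 of green the median was -0.072 for green against blue. For green against white it was -0.047 without library 1 of green and -0.05 without library 2 of white, but -0.153 without library 3 of green and -0.132 without library 1 of white. For blue against white it was 0.052 with blue 1 or white 2 left out, and -0.022 to -0.008 without any 1 of the other blue and white libraries. Its mean level relative to all libraries was -0.18, -0.034 and 0.011 in green, -0.028, 0.073 and 0.088 in blue libraries and -0.027, 0.101 and -0.004 in white. Library 3 of green thus lay above library 1 of blue and above 2 of the 3 white libraries.

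The 7 core subunits, which carry the flavin and the iron-sulphur clusters and are conserved from bacteria, had medians of -0.086 in green against blue and -0.055 in green against white. All 7 were lower in green than in white. Ndufv1, which binds NADH and flavin, was at 201, 256 and 269 CPM in green, 229, 253 and 256 CPM in blue libraries and 227, 271 and 239 CPM in white. The groups overlapped, and the log2 difference from white was -0.02 ± 0.11 (SE).

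Ndufs3, a core subunit of the matrix arm, stood apart most of the 7 between green and white. It was at 80.4, 95.1 and 96.8 CPM in green, 89.95, 103 and 99.6 CPM in blue libraries and 101, 109 and 105 CPM in white. Green lay below white without overlap, by -0.21 ± 0.09 on the log2 scale, and this did not pass (unadjusted p = 0.0431, edgeR adjusted p = 0.852). Over the alternatives the difference ran from -0.262 to -0.132, the latter without library 1 of green. In green against white 9 members lay below and 1 above without overlap, where 4.74% of all genes lay below and 5.34% above.

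Accessory subunits surround that core, and the Ndufb series sits in the membrane arm. Its 11 genes had medians of -0.134 in green against blue and -0.126 in green against white. Ndufb6 was at 80.7, 86.6 and 79.99 CPM in green, 88.75, 93.8 and 92.2 CPM in blue libraries and 94.7, 101 and 91.9 CPM in white. Green was below blue and below white without overlap. The difference from white, -0.22 ± 0.07 on the log2 scale, had the smallest p of the members in that comparison and did not pass (unadjusted p = 0.0136, edgeR adjusted p = 0.837).

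Ndufb5 was at 79.3, 81.99 and 87.7 CPM in green, 91.1, 94.2 and 101 CPM in blue libraries and 85.7, 92.3 and 86.2 CPM in white. Green and blue did not overlap (log2 difference -0.20 ± 0.08, edgeR adjusted p = 0.654). Ndufb4 was at 94.9, 102.5 and 99.3 CPM in green, 101, 104 and 116 CPM in blue libraries and 90.98, 101 and 91.3 CPM in white. Blue lay just above white, by 0.18 ± 0.08 (edgeR adjusted p = 1). Ndufb8 was at 122, 127 and 133 CPM in green, 128, 146.5 and 143 CPM in blue libraries and 138, 144 and 140 CPM in white, with green below white by -0.14 ± 0.08 (edgeR adjusted p = 0.903).

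Among the 16 other accessory subunits of complex I, the median log2 difference was -0.106 in green against blue and -0.085 in green against white. Ndufa12 was at 45.2, 45.1 and 53.4 CPM in green, 49.1, 54.6 and 60.4 CPM in blue libraries and 51.1, 54.25 and 54.2 CPM in white. Ndufc1 was at 21.96, 25.3 and 25.15 CPM in green, 27.5, 31.2 and 24.8 CPM in blue libraries and 27, 29.2 and 26.5 CPM in white. Both overlapped between green and blue, with edgeR adjusted p of 0.734 for Ndufa12 and 0.733 for Ndufc1. Ndufs5 lay within 42.0, 41.1 and 42.2 CPM in green, 46.0, 42.05 and 45.6 CPM in blue libraries and 41.0, 42.4 and 38.6 CPM in white.

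A few accessory genes did not follow the rest. Library 1 of green, low for most members, was above the 9-library mean for Ndufa5 and Ndufa9, named here after their values were seen. Ndufa9, near the junction of the matrix and membrane arms, was at 171, 158 and 156 CPM in green, 169.7, 137 and 151 CPM in blue libraries and 185, 149 and 149 CPM in white. Ndufa5, in the matrix arm, was at 25.6, 22.8 and 20.1 CPM in green, 25.3, 23.45 and 24.5 CPM in blue libraries and 22.7, 21.7 and 21.4 CPM in white. Blue exceeded white without overlap for Ndufa5, by 0.15 ± 0.10 (edgeR adjusted p = 1), as 5 members did, where 5.76% of all genes did. Ndufs4, a gene of inherited complex I deficiency in humans, was the most variable subunit of the complex, at 12.9, 13.5 and 11.9 CPM in green, 20.1, 11.45 and 13.6 CPM in blue libraries and 14.8, 13.1 and 16.8 CPM in white.

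**Figure D4:**
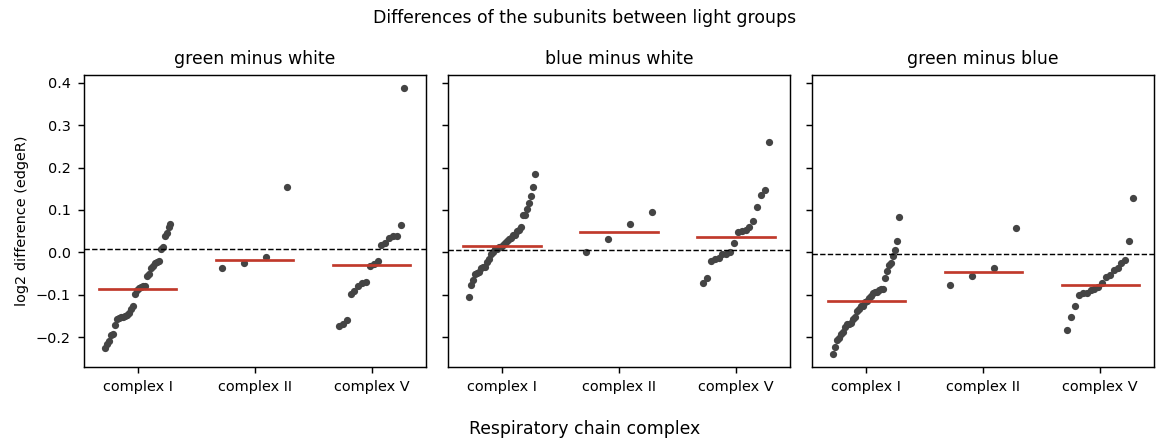
Each point is a member, placed in rising order within its complex; the vertical axis is the edgeR log2 difference, red bars are the medians of the complexes, and dashed lines are the median over all genes. Ndufa4 and Ndufa4l2 are left out. Medians of complexes I, II and V lie below the dashed line in both panels with green on top, at -0.115, -0.046 and -0.077 against blue.

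Complex II, succinate dehydrogenase, is built from nuclear genes alone and is also an enzyme of the citric acid cycle. Its mean level was -0.125, 0.053 and 0.062 in green, -0.011, 0.031 and 0.058 in blue libraries and -0.056, 0.034 and -0.046 in white. Sdha, the flavoprotein that oxidises succinate, was at 214, 245.5 and 235 CPM in green, 219, 220.4 and 228 CPM in blue libraries and 203, 206 and 215 CPM in white. It was the member of complex II that lay higher in green than in white, by 0.15 ± 0.07 on the log2 scale, with overlap between library 1 of green and library 3 of white (unadjusted p = 0.0576, edgeR adjusted p = 0.854).

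The other subunits of complex II kept closer to each other. Sdhb, the iron-sulphur subunit, was at 85.9, 101.5 and 104 CPM in green, 94.8, 105 and 99.9 CPM in blue libraries and 96.3, 104 and 98.8 CPM in white. Sdhc, a membrane anchor, was at 64.7, 75.1 and 76.4 CPM in green, 70.4, 78.2 and 76.2 CPM in blue libraries and 71.3, 78.98 and 69.7 CPM in white. Sdhd, the other anchor, was at 35.8, 37.4 and 38.2 CPM in green, 40.0, 36.55 and 40.9 CPM in blue libraries and 37.05, 39.2 and 35.9 CPM in white. Groups overlapped for all 3, with log2 differences between -0.04 and -0.01 in green against white.

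Complex V, ATP synthase, had 16 of 18 members lower in green than in blue (median -0.077) and 11 lower in green than in white (median -0.031). Without library 1 of green the medians were -0.031 for green against blue and 0.004 for green against white. Without library 2 of white the median for green against white was 0.001, and without any 1 of the other green and white libraries it was -0.08 to -0.053. Its mean level was -0.12, 0.001 and 0.033 in green, -0.025, 0.032 and 0.1 in blue libraries and -0.043, 0.075 and -0.051 in white. Atp5f1b, the catalytic beta subunit of the F1 head, was at 908, 1141 and 1112 CPM in green, 1016, 1164 and 1113 CPM in blue libraries and 1077, 1155 and 1093 CPM in white. Atp5f1a, the alpha subunit, was at 607, 715 and 684 CPM in green, 670.3, 677 and 710.1 CPM in blue libraries and 648, 675 and 630.4 CPM in white. For both, library 1 of green was lowest of the 9, and library 2 of green was the highest of the 9 for Atp5f1a, with log2 differences from white of -0.07 ± 0.09 for Atp5f1b and 0.04 ± 0.08 for Atp5f1a.

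Atp5f1e, the epsilon subunit of the central stalk, had the smallest p of complex V in green against blue. It was at 138.3, 138.1 and 151 CPM in green, 149.9, 162 and 173 CPM in blue libraries and 153, 166 and 159 CPM in white. The log2 difference was -0.18 ± 0.08 from blue, with overlap (edgeR adjusted p = 0.686), and -0.16 ± 0.08 from white, without overlap (edgeR adjusted p = 0.854). Atp5md, a small membrane subunit also called DAPIT, was at 60.6, 69.35 and 67.9 CPM in green, 69.5, 72.05 and 69.95 CPM in blue libraries and 76.8, 74.4 and 71.3 CPM in white. Green was below both other lights without overlap, where in green against blue 8 members in all and 6.94% of all genes lay below without overlap. The difference of Atp5md from white, -0.17 ± 0.08, did not pass (edgeR adjusted p = 0.854). Over the alternatives it ran from -0.207 to -0.116, the latter without library 1 of green.

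The ring of c subunits, whose turning drives the head, is encoded by Atp5mc1, Atp5mc2 and Atp5mc3. In mammals these genes give the same mature protein and differ in the leader peptide. Atp5mc1 was at 122.9, 144 and 154 CPM in green, 136, 157 and 159 CPM in blue libraries and 138, 168 and 145 CPM in white. Atp5mc2 was at 175, 207 and 224.5 CPM in green, 180.2, 216 and 228 CPM in blue libraries and 184, 204 and 211 CPM in white. Atp5mc3 was at 228, 244 and 253 CPM in green, 227, 276 and 258 CPM in blue libraries and 233, 248 and 254 CPM in white. All 3 overlapped between lights and had joint edgeR adjusted p-values of 0.95, 0.984 and 0.959; the sources used here do not give how reads of such near copies were shared out.

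In the peripheral stalk, which holds the head still, all 4 genes were lower in green than in blue, by -0.05 to -0.10 on the log2 scale. Atp5pb, subunit b, was at 149, 144 and 149 CPM in green, 166, 143 and 158 CPM in blue libraries and 148, 148 and 126 CPM in white, and blue and white overlapped (0.15 ± 0.09, edgeR adjusted p = 1). Library 3 of white was the lowest of the 9 for Atp5pb and for Atp5pf (51.97 CPM, where the others had 62.9 to 70.1). Named for complex V but not part of its core are Atp5if1, the inhibitor that blocks ATP hydrolysis when the gradient fails, and Atp5s. Atp5if1 was at 37.5, 32.5 and 35.8 CPM in green, 37.5, 36.2 and 38.7 CPM in blue libraries and 34.95, 34.3 and 34.99 CPM in white. Atp5s was at 5.14, 4.85 and 4.82 CPM in green, 5.26, 3.295 and 5.003 CPM in blue libraries and 3.29, 4.64 and 3.39 CPM in white, and was the member that lay above white without overlap in green (0.39 ± 0.21, edgeR adjusted p = 0.913).

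Ndufa4 was named as a complex I subunit and was later placed in complex IV, cytochrome c oxidase, in mammals. It was at 186, 202 and 239.7 CPM in green, 218, 213.5 and 220.0 CPM in blue libraries and 200.1, 209 and 222 CPM in white, so that green spanned both other lights. Its paralogue Ndufa4l2, a target of hypoxia-inducible factor in human and mouse cells, gave the largest differences of all members in both comparisons with blue. It was at 1.23, 1.37 and 0.942 CPM in green (96, 88 and 66 counts), 1.655, 1.79 and 2.29 CPM in blue (118, 132 and 156 counts) and 0.648, 1.39 and 1.01 CPM in white (44, 96 and 63 counts).

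Blue lay above both other lights without overlap for Ndufa4l2. The log2 difference was 0.91 ± 0.32 from white in blue (unadjusted p = 0.0164, edgeR adjusted p = 0.992), -0.69 ± 0.32 in green from blue (unadjusted p = 0.0525, edgeR adjusted p = 0.698) and 0.22 from white in green, and none passed. Over the alternatives the log2 difference of blue from white ran from 0.657 to 1.202, with a smallest adjusted p of 0.541. That of green from blue ran from -0.812 to -0.334, where -0.334 came with the pigment epithelium level as a covariate, with a smallest adjusted p of 0.582. The gene had few counts, and its 95% interval for blue against white, 0.201 to 1.618, was the widest of the 58 in that comparison.

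**Figure D5:**
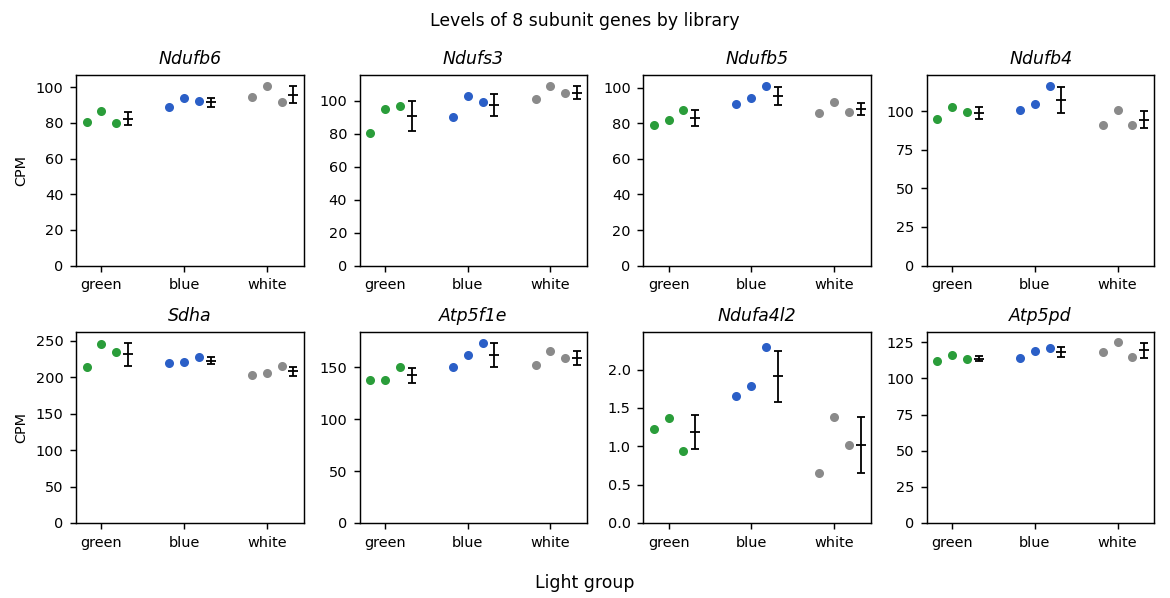
Points are the 3 libraries of each light (library 1 to 3 from left to right), with mean ± SD beside them; the vertical axes start at 0 and give CPM. Green lies below white without overlap for Ndufb6, Ndufs3 and Atp5f1e, blue above green and white for Ndufa4l2, and Atp5pd is the member that varied least.

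Other genes of the pathway passed the test in no comparison. Of 26 tested assembly factors of the chain, 0 were called. In green against blue 18 were lower and 8 higher (median log2 difference -0.089), where 50.6% of all genes were lower. In green against white 18 were lower and 8 higher (-0.055), where 47.6% of all genes were lower. In blue against white 13 went each way (0.011). Their mean level was 0.038, -0.23 and 0.022 in green, 0.022, -0.001 and 0.1 in blue libraries and 0.046, -0.002 and 0.005 in white. Their lowest library was thus library 2 of green, not library 1 as for the members. Acad9, an assembly factor of complex I, had the smallest joint p among them, at 67.75 ± 0.695 CPM in green, 67.9 ± 4.69 CPM in blue libraries and 59.9 ± 3.27 CPM in white (SD, n = 3 each; edgeR joint adjusted p = 0.859). Of 13 citric acid cycle genes 0 were called, with medians of -0.043 in green against blue, -0.003 in green against white and 0.007 in blue against white. Of 12 regulators of mitochondrial biogenesis 0 were called, with medians of -0.053, -0.058 and -0.046 in the same order. Pprc1, a coactivator of the PGC-1 family, was at 30.1 ± 3.475 CPM in green, 31.85 ± 0.605 CPM in blue libraries and 36.75 ± 2.36 CPM in white (SD, n = 3 each; edgeR joint adjusted p = 0.817).

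Ndufab1, which encodes the mitochondrial acyl carrier protein and a complex I subunit that the symbol rule leaves out, went the way of the members. It averaged 79.3 ± 3.39 CPM in green, 95.95 ± 2.84 CPM in blue libraries and 92.9 ± 6.71 CPM in white (SD, n = 3 each). The log2 difference in green against blue, -0.275 ± 0.079, did not pass (unadjusted p = 0.00502, edgeR adjusted p = 0.587). Dmac1 and Dmac2, assembly factors of the distal membrane arm of complex I, did not pass either, with edgeR adjusted p of 0.654 and 0.978 in green against blue.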

How the data were processed

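Frozen retinas gave Trizol-extracted RNA, read as paired ends on an Illumina HiSeq, per the labels' protocols. The authors deposited whole-number counts per gene for 9 libraries. Aligner, counter, strand setting, build and annotation were not given in the sources used here, so reads of overlapping or antisense genes cannot be told apart. Among all counts 2014 values equal 4 and 472 equal 3, so a unit may not be a single fragment. Floors cover counting error only.

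Genes were filtered with filterByExpr (minimum count 10, minimum total 15), scaled by TMM, and fitted with light group as sole term in edgeR 4.0.16 (R 4.3.3). SE and 95% intervals come from the quasi-likelihood F statistic and are not adjusted. Log2 levels use a prior count of 2. Alternatives used DESeq2 1.42.0 and limma 3.58.1. The procedure was tested on simulated data with independent libraries and changes larger than those of the members. That simulation therefore does not cover differences as small as those seen here, or libraries that share an animal number. Libraries of a group differed beyond sampling noise (chi-square per degree of freedom at least 19.9) and were treated as independent. The p-values thus measure the spread between libraries, partly between libraries that share an animal number. Library numbers follow the order of deposition and pair nothing.

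Members and lists were chosen with earlier results of these data known. In each comparison the 6 members of smallest p were named, with the 2 of highest CPM in complexes I and V (not corrected for length, so levels of different genes are not compared), all of complex II, isoform families and the extremes of spread; 1 such member is not reported here, though it stays in the fits and counts. Of the 59 symbols 56 match the RefSeq names of mCavPor4.1.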

Additional observations from a re-analysis of the deposited data

How the results depend on the processing

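Over 21 alternatives (19 for the joint test), 0 members were called in any comparison. Each of the differences of the 6 members of smallest p in each comparison kept its direction and stayed below the threshold wherever it could be fitted; Ndufa4l2 fell out under the filter of 5 CPM. The median of members ran from -0.123 to -0.036 in green against blue, from -0.12 to -0.012 in green against white, and from -0.023 to 0.066 in blue against white, where the sign turned under 7 alternatives. Counts over all genes moved more. In green against white, where the main count was 1, DESeq2 called 24, removal of both "-B" libraries gave 10, and the 5 CPM filter, voom, the 2 groups alone, division by 4 and the pigment epithelium covariate gave 0; leaving out single libraries gave 0 to 6. In blue against white, with a main count of 1, DESeq2 called 28, removal of both "-B" libraries gave 12, the "-B" covariate 3, and the 5 CPM filter, voom, the 2 groups alone and division by 4 gave 0; single libraries left out gave 0 to 7. In green against blue, with a main count of 0 (1110 at an unadjusted p under 0.05; voom 0), DESeq2 called 41, and the 2 groups alone and the "-B" covariate gave 1 each; single libraries left out gave 0 to 4. In the joint test, with a main count of 1, removal of both "-B" libraries gave 12, the "-B" covariate 2, and the 5 CPM filter, voom, sums per animal number, division by 4 and the pigment epithelium covariate gave 0; single libraries left out gave 0 to 6. The causes were not tested. DESeq2's Wald test and the fits of 2 groups give no joint test. No paired analysis across lights was possible because no animal label is shared between lights. Depth limits Ndufa4l2, with 44 to 156 counts a library.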

Other observations

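A contrast between Sdha and complex I was noticed after the values were seen, and is a description with no test. The log2 level of Sdha relative to the mean of complex I in the same library was 0.138, 0.189 and 0.082 in green, 0.021, -0.074 and -0.038 in blue libraries and -0.091, -0.197 and -0.031 in white. The green libraries lay above all others by this measure, which does not depend on how libraries are scaled. How many other genes would set green apart in this way was not counted. Library 1 of green, lowest for complex I and complex II alike, is not apart from the other green libraries here. For Sdhb, Sdhc and Sdhd together the values were 0.026, 0.053 and 0.04 in green, 0.016, -0.031 and -0.027 in blue libraries and -0.009, -0.024 and -0.045 in white. Their lowest value in green, 0.026, was close to the highest outside green, 0.016. The difference of Sdha relative to complex I was 0.243 in green against white and 0.169 in green against blue on the log2 scale. Over 21 alternatives it ran from 0.196 to 0.282 and from 0.14 to 0.199. Many of these alternatives could hardly move it and are no support. In green against white it stayed at 0.243 under other scalings and without any blue library. It was 0.196 without library 2 of white and 0.282 without library 3 of white. The ratio shows unequal levels and not which of its terms moved.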
